A study of Homo sapiens with 4 samples.

Results

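HOX genes are the homeobox genes of 4 chromosomal clusters, HOXA to HOXD, and each member carries a paralog number that gives its place in its cluster. In HCT116 human colon cancer cells they were read as the rows of the count files whose gene name is HOX, a letter from A to D and a number, which gave 38 of 20812 rows. The rows comprised 11 genes of HOXA on chromosome 7, 10 of HOXB on chromosome 17, 8 of HOXC on chromosome 12 and 9 of HOXD on chromosome 2. HOX proteins are transcription factors that bind DNA through a homeodomain and set identity along the head-to-tail axis of the embryo. Low-numbered paralogs act towards the head and high-numbered ones towards the tail, and the order of genes along a cluster follows the order in which they are switched on. Polycomb complexes keep the clusters silent, trithorax complexes keep them active, and adult gut epithelium retains a set of active HOX genes.

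The samples were 4 libraries of HCT116 cells, a line with genotype labels of hIDO1 overexpression or wild type. IDO1 opens the ring of tryptophan on the way to kynurenine, and indole is a bacterial product of tryptophan. The groups were the hIDO1-overexpressing line with 1 mM indole, the same line with the solvent DMF, wild type with 1 mM indole and wild type with DMF, each for 24 h and each with 1 column of counts, taken as 1 library. The labels give neither the promoter of the hIDO1 construct nor whether the line is 1 clone, and they name no vector control, so overexpression and any other difference between the lines cannot be told apart.

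Reads came from an amplicon assay with 1 short PCR target per gene, and totals ranged from 18283862 to 22736172 reads. IDO1 had 2440 and 3451 reads in the IDO1 line with indole and with DMF, against 2 and 0 in wild type with indole and with DMF. Wild type treated with indole lay away from the other libraries, with a score of 32.6 on a first principal component that carried 73.0% of the variance, against -15.3, -13.6 and -3.69 in the other libraries. Ratios of the lines are given in DMF as well, where that library has no part, while the additive fit and the ordering of all 4 libraries include it. Of the colon epithelial markers, EPCAM had 5257 to 7045 reads and CDX2 809 to 1102. CDX1 had 0 reads in every library, and VIL1, CDH17 and LGR5 had at most 2. Levels below are reads or CPM, which is reads relative to the library total, scaled by TMM, a method that balances libraries on the bulk of their genes. A target with 0 reads allows up to 3 reads, or 0.131 to 0.157 CPM depending on the library. Folds given as at least divide the level in the other library by that floor. They leave out the counting error of the other library's reads. Targets amplify with different efficiency, so each gene is compared with itself across libraries.

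HOXD13, HOXD11 and HOXD10 had reads in the IDO1 line and at most 2 reads in either wild type library, while HOXD8, the next gene with a matched start site along the same cluster, had 42 to 69 reads in every library. The 250 bases before the annotated start of each are shown because these members moved together and HOXD8 did not. They come from the RefSeq table of build GRCh38.p14, in which 19 of the 38 members had a matched window. The deposited counts were made on hg19, and the windows were matched by symbol only. HOXD13 lies at chr2:176092471-176092720, HOXD11 at chr2:176107030-176107279, HOXD10 at chr2:176116528-176116777 and HOXD8 at chr2:176129455-176129704, all on the plus strand. Capitals mark matches on either strand to the TATA box letters TATAAA, to the CCAAT box and to TTTATNG, a pattern bound by high-numbered HOX and CDX proteins. Overlapping matches run together.
HOXD13: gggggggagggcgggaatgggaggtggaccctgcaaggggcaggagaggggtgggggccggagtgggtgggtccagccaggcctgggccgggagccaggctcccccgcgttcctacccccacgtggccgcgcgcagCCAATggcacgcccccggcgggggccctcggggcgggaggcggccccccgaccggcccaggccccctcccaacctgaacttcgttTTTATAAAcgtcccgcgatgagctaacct
HOXD11: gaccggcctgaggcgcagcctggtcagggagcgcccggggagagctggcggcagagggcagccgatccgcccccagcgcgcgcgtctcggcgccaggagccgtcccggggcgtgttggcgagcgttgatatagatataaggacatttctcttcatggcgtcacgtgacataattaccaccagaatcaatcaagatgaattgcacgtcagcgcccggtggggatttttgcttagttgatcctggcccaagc
HOXD10: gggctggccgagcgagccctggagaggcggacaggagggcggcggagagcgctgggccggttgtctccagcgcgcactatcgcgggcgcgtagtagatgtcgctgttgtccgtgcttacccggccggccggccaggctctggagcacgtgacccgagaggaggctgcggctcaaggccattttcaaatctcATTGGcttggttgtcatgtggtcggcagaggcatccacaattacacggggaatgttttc
HOXD8: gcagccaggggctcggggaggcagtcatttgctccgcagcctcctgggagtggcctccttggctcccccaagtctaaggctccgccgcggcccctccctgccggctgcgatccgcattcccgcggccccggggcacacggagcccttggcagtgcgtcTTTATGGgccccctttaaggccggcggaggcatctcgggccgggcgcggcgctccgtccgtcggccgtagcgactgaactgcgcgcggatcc

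The HOXD13 window held TATAAA on both strands, in 2 overlapping matches that begin 29 and 27 bases before the start, and a CCAAT 114 bases before it. The HOXD10 window held 1 CCAAT on the minus strand, 59 bases before the start. The HOXD8 window held 1 TTTATNG, 92 bases before the start, and the HOXD11 window held none of the 3 motifs. Over 35116 windows of that length, 10.7% held TATAAA, 32.0% CCAAT and 8.93% TTTATNG. All 4 windows were rich in CpG, with 21 in HOXD13, 23 in HOXD11, 23 in HOXD10 and 28 in HOXD8, against a median of 11 over all windows. The matched letters thus differed among HOXD13, HOXD11 and HOXD10. HOXD9, which moved with them and lies between HOXD10 and HOXD8, had no matched window.

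In the IDO1 line with indole and with DMF, 34 and 33 of the 38 members had at least 1 read, against 31 and 31 in wild type with indole and with DMF. Among all targets, 15395 and 15505 had reads in the IDO1 line with indole and with DMF, against 15079 and 14892 in wild type. The IDO1 libraries thus had more targets with reads over all genes too. At least 1 CPM was reached by 27 and 27 members in the IDO1 line and by 21 and 21 in wild type. The matching count at 1 CPM over all targets is not given here. The 6 members that reached 1 CPM in an IDO1 library and in neither wild type library were HOXA4, HOXC11, HOXD3, HOXD9, HOXD10 and HOXD13. HOX genes together took 0.0480% (95% Clopper-Pearson interval 0.0470 to 0.0490) and 0.0493% (0.0484 to 0.0503) of reads in the IDO1 line with indole and with DMF, against 0.0483% (0.0473 to 0.0493) and 0.0413% (0.0405 to 0.0422) in wild type. On these unscaled totals the share of wild type with DMF was the low one, and the other libraries lay close together. With TMM the summed HOX level was 478 and 492 CPM in the IDO1 line with indole and with DMF. In wild type it was 456 and 441 CPM, so both wild type libraries were then lower. As no molecular identifiers were used, several PCR reads may stem from 1 molecule, and intervals and floors cover counting error only.

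**Figure D1:**
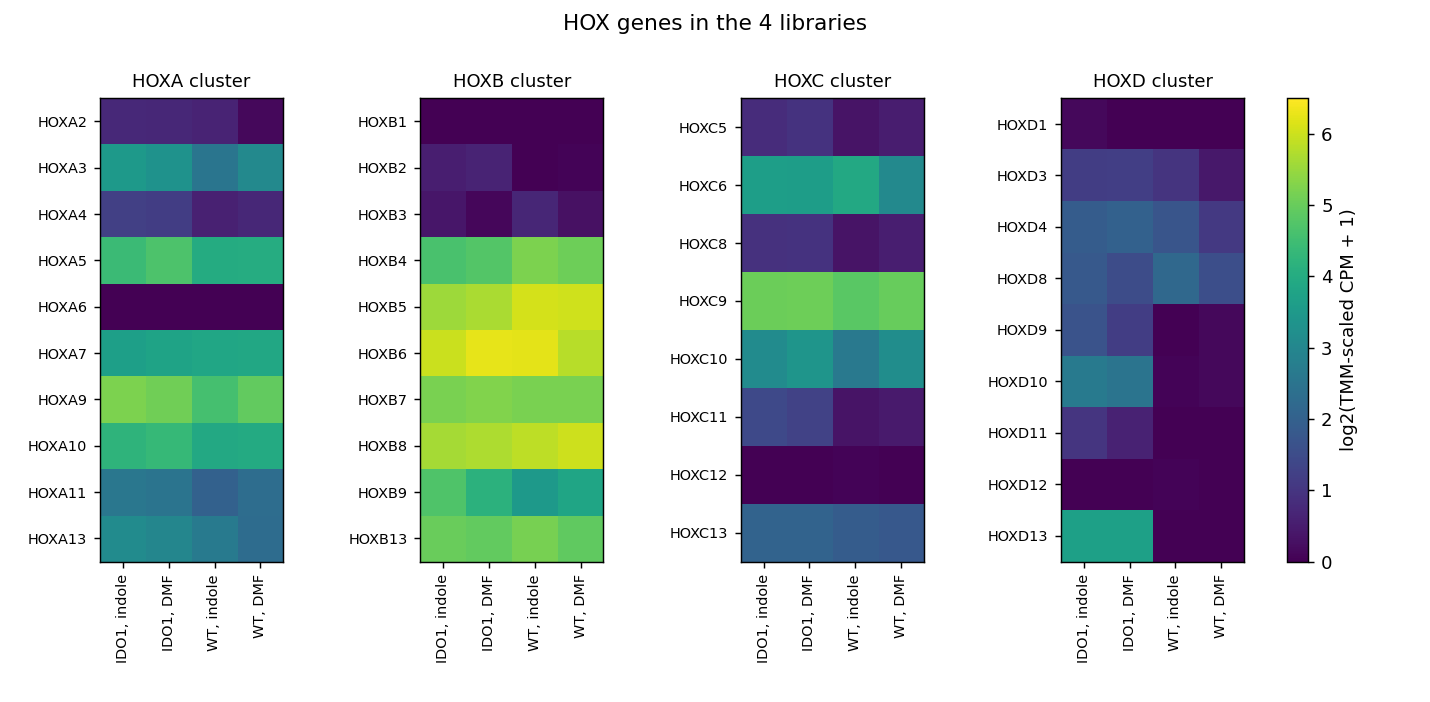
Heatmap of log2(TMM-scaled CPM + 1) for the HOX genes described, 1 panel per cluster with genes in order of paralog number and 1 column per library. HOXD13 and HOXD10 are brighter in the IDO1 columns than in the wild type columns. HOXD9 and HOXD11 are only slightly brighter there, near the dark end of the scale, and HOXD12 had at most 1 read in any library.

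The comparison of the lines asked which HOX genes differ between the IDO1 line and wild type in both treatments. Fitted additively for line and treatment and tested by quasi-likelihood in edgeR, 6 of 31 tested members rose in the IDO1 line and 0 fell, at an adjusted p under 0.05. Over all 13122 genes tested, 2.03% rose and 0.419% fell. Among those that rose were HOXC11 and HOXD13, HOXD11, HOXD10 and HOXD9, which lie at the high-numbered end of HOXD. The median log2 fold change was 0.58 over the 31 members and 0.01 over all genes. At an unadjusted p under 0.05 there were 12 members and 1311 of all genes with edgeR, and 7 members and 683 of all genes with DESeq2. DESeq2 called 2 members after adjustment, HOXD13 and HOXD10. Each factor had 2 libraries per level and 1 residual degree of freedom was left, so p-values reflect the scatter of these libraries alone, which may be technical.

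The 7 members not tested, for low reads, were HOXA6, HOXB1, HOXB2, HOXB3, HOXC12, HOXD1 and HOXD12. HOXA6 and HOXB1, a hindbrain gene, had 0 reads in every library, and HOXC12, HOXD1 and HOXD12 had at most 2. HOXB2 had 9 and 13 reads in the IDO1 line with indole and with DMF, against 0 and 1 in wild type. HOXB3 had 6 and 2 reads in the IDO1 line, against 12 and 5 in wild type. For these members the depth limits what could be seen, and whether a target with 0 reads amplifies at all was not tested.

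Without a filter, and over the 36 members with a read, both IDO1 libraries lay above both wild type libraries for 22 members and below them for 4, while 10 overlapped. The same ordering held for 20.9% and 18.6% of the 16748 genes with a read. With library totals in place of TMM, HOXC10 joined the higher members, and the counts were 23 and 4, while over all genes they were 4065 and 2474, against 3505 and 3112 with TMM. By cluster, the members above and below were 9 and 1 of 10 in HOXA, 2 and 3 of 9 in HOXB, 5 and 0 of 8 in HOXC and 6 and 0 of 9 in HOXD.

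**Figure D2:**
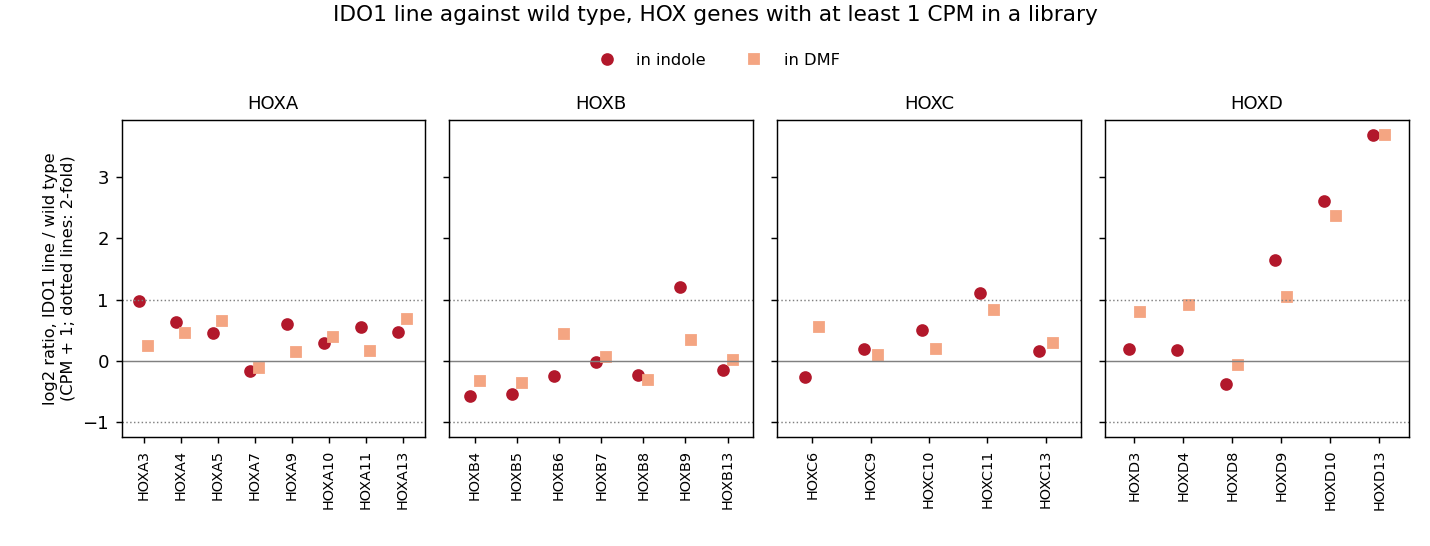
Log2 ratio of the IDO1 line to wild type on CPM plus 1, in indole (circles) and in DMF (squares), for the HOX genes described that had at least 1 CPM in a library, by cluster and paralog number. Points of HOXD9, HOXD10 and HOXD13 lie above the 2-fold line in both treatments, and most HOXB points lie near or below 0.

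Of 7 tested HOXD members 4 rose, the most of any cluster. Their summed level was 27 and 24.5 CPM in the IDO1 line with indole and with DMF, against 6.92 and 3.62 CPM in wild type, or 3.90-fold higher in indole and 6.77-fold higher in DMF. Genes known from embryonic kidney lines moved with it, at 111 and 110 CPM in the IDO1 line, against 13.0 and 13.6 CPM in wild type, and their part in the result was not tested. In bulk libraries, fewer cells of a type and less RNA per cell cannot be told apart. HOXD13, which patterns digits and the genital and anal region, had 228 and 271 reads in the IDO1 line with indole and with DMF, against 0 and 0 in wild type. That is at least 76.9-fold higher in indole and at least 84.2-fold higher in DMF, against a floor of 3 reads per library. Its levels in the IDO1 line were 11.9 CPM with either treatment, and its adjusted p for the line was 5.53e-11.

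HOXD12, between HOXD13 and HOXD11, had 0 and 0 reads in the IDO1 line, against 1 and 0 in wild type. HOXD11, a gene of forearm and kidney development in the mouse, had 19 and 12 reads in the IDO1 line, against 0 and 0 in wild type, which is at least 6.40-fold higher in indole and at least 3.73-fold higher in DMF (edgeR adjusted p 0.00650). That call rested on few reads. It was lost with DESeq2 (adjusted p 0.332), with treatment left out of the model (0.0629) and without the IDO1 library with DMF (0.293), over a range of 0.00159 to 0.332 across alternatives. It was not tested, for low reads, without the IDO1 library with indole or with a minimum of 1 CPM in 2 libraries.

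HOXD10, a limb and spinal motor neuron gene, had 103 and 106 reads in the IDO1 line with indole and with DMF, against 1 and 2 in wild type. The ratio was 104 in indole (95% counting interval 18.3 to 4153) and 49.4 in DMF (13.3 to 413). Its log2 fold change for the line was 5.96 (SE 0.63, adjusted p 1.45e-07), and it was higher in both treatments. HOXD10 and HOXD13 were called in all 6 alternatives, DESeq2 included, and without each of the 4 libraries in turn. The highest adjusted p was 0.00159 in the alternatives and 0.00551 without a library for HOXD10, and 0.000711 and 0.000906 for HOXD13.

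HOXD9 had 41 and 29 reads in the IDO1 line, against 0 and 2 in wild type. It was at least 13.8-fold higher in indole and 13.5-fold higher in DMF (3.42 to 117), with an edgeR adjusted p of 0.000700. DESeq2 gave 0.0893, and leaving out the IDO1 library with indole or with DMF gave 0.275 and 0.105, within a range of 1.33e-05 to 0.275. HOXD9 and HOXD10 were each at or near 0 in wild type, and none of their IDO1 values overlapped the wild type ones.

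**Figure D3:**
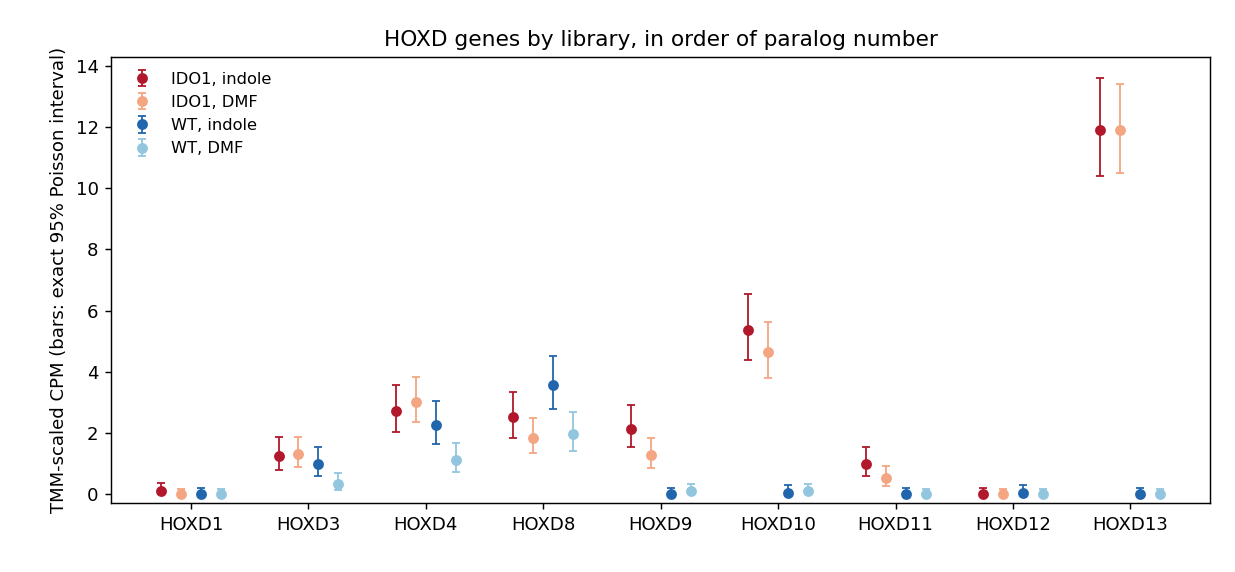
TMM-scaled CPM of the 9 HOXD genes in each library, with exact 95% Poisson intervals of counting error. The IDO1 points of HOXD13 are at 11.9 CPM and the wild type points at 0, whereas the 4 points of HOXD8 lie between 1.84 and 3.57 CPM.

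From HOXD8 on towards the low-numbered end, no member was called. HOXD8 had 48 and 42 reads in the IDO1 line with indole and with DMF, against 69 and 42 in wild type (log2 fold change -0.32, edgeR adjusted p 0.891), and the lines overlapped. HOXD4 had 52 and 69 reads in the IDO1 line, against 44 and 24 in wild type, with ratios of 1.20 (0.784 to 1.83) in indole and 2.68 (1.66 to 4.46) in DMF. HOXD3 had 24 and 30 reads in the IDO1 line, against 19 and 7 in wild type, with ratios of 1.28 (0.671 to 2.47) and 3.99 (1.72 to 10.8). For both genes the interval excluded 1 in DMF alone, where the wild type library was the low one. The HOXD3 row carries the gene ID of HOXD4 as well as its own, so reads of these neighbours may be shared and their values are uncertain.

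The genes that flank HOXD in the order of GRCh38.p14, and that were named for their position, had no called difference between the lines. EVX2, the homeobox gene beside HOXD13, had 0 reads in every library. KIAA1715, beyond EVX2, had 185 and 261 reads in the IDO1 line with indole and with DMF, against 181 and 239 in wild type (log2 fold change 0.03, SE 0.26, edgeR adjusted p 0.989). MTX2, a mitochondrial import gene past HOXD1, had 738 and 670 reads in the IDO1 line, against 647 and 838 in wild type (-0.12, SE 0.23, adjusted p 0.938). The called HOXD members thus lay between HOXD8 on one side and EVX2, which had no reads to test, on the other. HOXD12, which lies among them, was not tested for low reads, so they were not an unbroken run.

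Of 7 tested HOXC members, 7 had a log2 fold change above 0 and 1, HOXC11, was called. HOXC11, a hindlimb gene in the mouse, had 33 and 33 reads in the IDO1 line with indole and with DMF, against 5 and 8 in wild type. Ratios were 6.67 (2.59 to 21.9) in indole and 3.84 (1.74 to 9.64) in DMF, and its log2 fold change was 2.28 (SE 0.63, edgeR adjusted p 0.0463). The groups did not overlap, but the call was near the threshold. Of 6 alternatives 4 lost it, with adjusted p of 0.0556 to 0.883, and over all 6 the lowest was 0.0319. It was also lost without either IDO1 library (0.999 without indole, 0.827 without DMF) and without wild type with indole (0.0710).

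HOTAIR, a noncoding RNA gene between HOXC12 and HOXC11, had 19 and 23 reads in the IDO1 line, against 6 and 5 in wild type (log2 fold change 1.86, SE 0.69, edgeR adjusted p 0.254). It was higher in both treatments and was not called, and it was named after its values were seen, as was HOTAIRM1. HOXC5 had 15 and 21 reads in the IDO1 line, against 5 and 9 in wild type, and HOXC8 had 17 and 21, against 5 and 10. Neither was called, with adjusted p of 0.552 and 0.542 by edgeR.

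No other HOXC member was called. HOXC9, which sets thoracic motor neuron identity in the mouse, had 613 and 743 reads in the IDO1 line with indole and with DMF, against 537 and 651 in wild type (log2 fold change 0.14). HOXC10 had 149 and 218 reads in the IDO1 line, against 101 and 174 in wild type (0.39), and these ranges overlapped on the CPM scale. HOXC13, a hair follicle gene, had 61 and 73 reads in the IDO1 line, against 53 and 52 in wild type (0.30). HOXC6 had 222 and 258 reads in the IDO1 line, against 272 and 157 in wild type, so that it was lower in the IDO1 line in indole, with a ratio of 0.825 (0.688 to 0.989), and higher in DMF, with 1.53 (1.25 to 1.88).

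Of 10 tested HOXA members, 9 had a log2 fold change above 0. Their summed level was 121 and 121 CPM in the IDO1 line with indole and with DMF, against 83.4 and 93.8 CPM in wild type, and the median log2 fold change was 0.63.

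HOTAIRM1, a noncoding RNA gene of the HOXA cluster, had 41 and 49 reads in the IDO1 line, against 13 and 14 in wild type (log2 fold change 1.67, SE 0.52, edgeR adjusted p 0.113). The assay is not stated to keep strand, and reads of overlapping genes on opposite strands could not be told apart. HOXA2, a gene of the branchial arches, had 13 and 15 reads in the IDO1 line, against 11 and 2 in wild type, so the wild type libraries were far apart. HOXA4 had 26 and 29 reads in the IDO1 line, against 10 and 14 in wild type (log2 fold change 1.14, adjusted p 0.529), and did not overlap.

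HOXA3, which is needed for the thymus and parathyroid in the mouse, had 200 and 205 reads in the IDO1 line with indole and with DMF, against 93 and 157 in wild type (log2 fold change 0.68, SE 0.29, edgeR adjusted p 0.385). HOXA5, a lung patterning gene in the mouse, had 397 and 561 reads in the IDO1 line, against 288 and 323 in wild type (0.58, SE 0.24, adjusted p 0.351). HOXA13, the most tailward member and a hindgut gene, had 149 and 158 reads in the IDO1 line, against 103 and 83 in wild type (0.68, SE 0.30, adjusted p 0.425). All 3 were higher in both treatments and did not overlap in CPM, but none passed the adjusted threshold.

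HOXA9, a leukaemia-associated gene, had 687 and 749 reads in the IDO1 line, against 447 and 632 in wild type. HOXA10, a uterine patterning gene, had 341 and 447 reads, against 276 and 313 in wild type, and HOXA11 had 95 and 106, against 59 and 86. Their log2 fold changes were 0.38, 0.36 and 0.44, all uncalled. HOXA7 was the HOXA member that lay lower in the IDO1 line, with 225 and 287 reads there, against 259 and 293 in wild type (log2 fold change -0.17).

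HOXB members were not called in either direction among 7 tested, with a median log2 fold change of -0.07. Their summed level was 273 and 287 CPM in the IDO1 line with indole and with DMF, against 315 and 293 CPM in wild type. HOXB4, which expands blood stem cells when overexpressed, had 460 and 590 reads in the IDO1 line, against 699 and 694 in wild type (log2 fold change -0.47, edgeR adjusted p 0.491). HOXB5 had 874 and 1135 reads in the IDO1 line, against 1288 and 1364 in wild type (-0.46, adjusted p 0.468), and HOXB8 had 926 and 1158, against 1102 and 1342 in wild type (-0.28, adjusted p 0.760). All 3 were lower in the IDO1 line in both treatments, with ratios of 0.665 to 0.850 and counting intervals below 1, but none passed the test.

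HOXB9 went the other way, with 478 and 390 reads in the IDO1 line with indole and with DMF, against 198 and 280 in wild type (log2 fold change 0.82, SE 0.26, edgeR adjusted p 0.131). It passed with no filter on low counts (adjusted p 0.0441) and without wild type with DMF (0.00104), and over all alternatives and left-out libraries adjusted p ranged from 0.00104 to 0.999. HOXB6 had 1195 and 1722 reads in the IDO1 line, against 1437 and 1175 in wild type, and overlapped. HOXB7 had 675 and 860 reads, against 690 and 762 in wild type, and HOXB13, a gene of the prostate and distal colon, had 598 and 672, against 672 and 618 in wild type. Their log2 fold changes of 0.09, 0.02 and -0.07 were all uncalled, the smallest adjusted p by edgeR being 0.957, for HOXB6.

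By paralog number, the called members of HOXC and HOXD belonged to groups 9, 10, 11 and 13. In group 13, HOXD13 was called while HOXA13, HOXB13 and HOXC13 were not. In group 9, log2 fold changes were 0.38, 0.82, 0.14 and 4.90 for HOXA9, HOXB9, HOXC9 and HOXD9. In group 10 they were 0.36, 0.39 and 5.96 for HOXA10, HOXC10 and HOXD10, and in group 11 they were 0.44 for HOXA11 and 2.28 for HOXC11, with HOXD11 at 0 reads in wild type. In groups 9, 10 and 13 the HOXD member differed most. In group 11 the ratios of HOXC11 were 6.67 in indole and 3.84 in DMF. The folds of HOXD11, at least 6.40 and at least 3.73, are lower bounds, so these values do not rank the genes. The fitted log2 fold change of HOXD11 was 6.95 (SE 1.53), but its size is uncertain with 0 reads in wild type. The difference thus did not run evenly across paralogs.

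Without the additive model, the line was compared within each treatment as the ratio of 2 libraries, which share no library between treatments. In indole, 6 of 27 members with at least 1 CPM in either library were at least 2-fold higher on the scale of CPM plus 1 in the IDO1 line, and 0 were lower. Over all genes compared in indole, 3.33% were at least 2-fold higher and 2.70% lower. With library totals the split over all genes was 354 higher and 443 lower, against 418 and 338 with TMM, and the HOX count stayed at 6. Above 0 were 18 of 27 members in indole and 22 of 27 in DMF, against 50.6% and 50.0% of all genes. Of the 27, HOXA4, HOXC11, HOXD3, HOXD9, HOXD10 and HOXD13 reached 1 CPM in the IDO1 line alone. The filter thus fixed their place above 0, and these counts cannot show a shift of HOX genes. In DMF, 3 of 27 were at least 2-fold higher and 0 lower, against 1.71% and 0.202% of all genes. HOXD9, HOXD10 and HOXD13 passed in both, and each was compared only because of its level in the IDO1 line. HOXB9 and HOXC11 passed in indole but not in DMF, where their log2 ratios were 0.35 and 0.83. The pseudocount understates low genes, and with a pseudocount of 0.25 the count in DMF was 6.

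The comparison of treatments asked whether indole moves HOX genes. With edgeR's quasi-likelihood test, 0 of 31 tested members were called for indole against DMF in either direction, 0 had an unadjusted p under 0.05, and the smallest unadjusted p was 0.0917, for HOXC6. DESeq2 also gave 0 members at an unadjusted p under 0.05. Over all genes 0 were called in either direction (0% of 13122), with 448 at an unadjusted p under 0.05 by edgeR and 127 by DESeq2. The median log2 fold change was 0.01 over the members and 0.01 over all genes.

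In the IDO1 line, 0 of 27 members were at least 2-fold apart between indole and DMF on the scale of CPM plus 1, against 0.0566% of all genes in each direction, and 14 of 27 lay above 0, against 50.0% of all genes. HOXD13 there had 11.9 CPM with either treatment, a ratio of 1.00 (0.837 to 1.20), and HOXD10 had a ratio of 1.16 (0.875 to 1.53). The interval excluded 1 for HOXB9, with a ratio of 1.46 (1.28 to 1.67), for HOXD9, with 1.69 (1.02 to 2.81), for HOXA5, with 0.844 (0.740 to 0.961), and for HOXB6, with 0.827 (0.768 to 0.891).

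In wild type, 0 of 21 members were at least 2-fold apart on the scale of CPM plus 1, while 1.78% of all genes were at least 2-fold higher with indole and 1.26% lower. Above 0 were 9 of 21 members, against 50.3% of all genes. On the scale of CPM plus 1, HOXC6 moved most among these, by 0.84 in log2, with a ratio of 1.90 (1.56 to 2.33), at 14.1 CPM with indole and 7.38 CPM with DMF. HOXD4 and HOXD8 had ratios of 2.01 (1.20 to 3.46) and 1.81 (1.21 to 2.72). HOXA3 and HOXC10 were lower with indole, with ratios of 0.651 (0.498 to 0.847) and 0.638 (0.494 to 0.820). With library totals the median of all genes in this comparison moved to 0.16, from 0.00 with TMM, the split over all genes was 412 higher and 88 lower, against 220 and 155 with TMM, and 1 member reached 2-fold. All of these values rest on the wild type library with indole that stood apart.

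**Figure D4:**
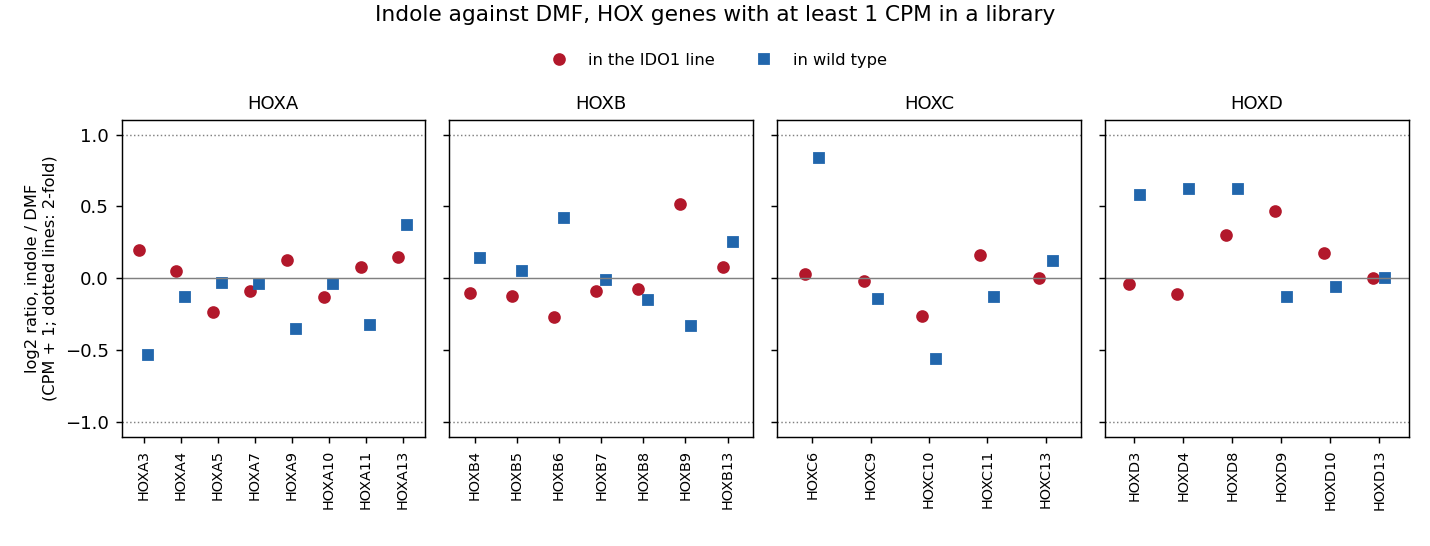
Log2 ratio of indole to DMF on CPM plus 1, in the IDO1 line (circles) and in wild type (squares), for the HOX genes described that had at least 1 CPM in a library. All points lie within the dotted 2-fold lines, and the points of HOXD13 lie at 0 in both lines.

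Genes that work with or on the HOX clusters were read from lists. Of the PBX, MEIS and PKNOX cofactors, which bind DNA together with HOX proteins, 1 of 8 tested rose in the IDO1 line and 0 fell, with a median log2 fold change of 0.25. It was MEIS1, with 13 and 22 reads in the IDO1 line with indole and with DMF, against 0 and 0 in wild type (edgeR adjusted p 0.00402).

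On the retinoic acid list, whose signal switches on HOX genes from the low-numbered end, 2 of 12 tested genes rose and 0 fell. RARB, a receptor and itself a target of retinoic acid, had 21 and 22 reads in the IDO1 line, against 0 and 0 in wild type (edgeR adjusted p 0.00132). ALDH1A2, an enzyme that makes retinoic acid, had 58 and 62 reads in the IDO1 line, against 10 and 8 in wild type (log2 fold change 2.67, SE 0.53, adjusted p 0.00189). The other tested genes of the list were not called, and its median was -0.19.

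Genes that silence or maintain HOX clusters were not called in either direction. Of 27 Polycomb genes and 14 trithorax and demethylase genes, 0 passed, with medians of 0.11 and 0.12. RBBP4, a histone-binding subunit and the Polycomb gene with most reads, had 6793 and 8051 reads in the IDO1 line with indole and with DMF, against 6433 and 7369 in wild type. RING1, a ubiquitin ligase, had 2707 and 3387, against 3081 and 3497 in wild type. MEN1, the menin gene and the trithorax gene with most reads, had 2751 and 3538 reads in the IDO1 line, against 2194 and 3266 in wild type, and MLL4 had 1736 and 2312, against 1659 and 1662. Of 2 tested CDX and ParaHox genes 0 were called, and CDX2, an activator of HOX genes in the gut, had 809 and 1102 reads in the IDO1 line, against 993 and 917 in wild type. PDX1 had 57 and 56 reads in the IDO1 line, against 33 and 36 in wild type. Of 15 tested cluster neighbours and noncoding RNAs, 0 were called.

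Markers of another cell type moved with the HOXD genes. Of 11 genes known from embryonic kidney lines, 7 rose in the IDO1 line and 0 fell, namely IRS4, NEFL, NEFM, INA, UCHL1, VIM and CDH2. IRS4, an insulin receptor substrate, had 249 and 360 reads in the IDO1 line, against 0 and 1 in wild type. The summed level of that list was 111 and 110 CPM in the IDO1 line with indole and with DMF, against 13.0 and 13.6 CPM in wild type, and UCHL1 and NEFM had 0 reads in both wild type libraries. PAX2, LHX1 and EYA1 were among its members that were not called. The list was drawn up with earlier results of these libraries known, and its part in the HOX result was not tested.

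Colon epithelial markers had 0 calls among 7 tested, and their sum was 3901 and 3567 CPM in the IDO1 line, against 4562 and 4890 CPM in wild type. The keratin genes KRT8, KRT18 and KRT19 made up most of that sum. Fibroblast, endothelial and leukocyte lists had 0 calls among 2, 1 and 1 tested genes. The leukocyte sum was at most 0.833 CPM, with PTPRC and CD3E at 0 in every library, and the endothelial sum at most 4.86 CPM, with CDH5 at 0. Of the fibroblast genes, COL1A2, DCN, THY1 and POSTN had 0 reads throughout, and COL1A1 made up most of a sum of 75.0 and 77.5 CPM in the IDO1 line, against 98.6 and 86.5 CPM in wild type.

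**Figure D5:**
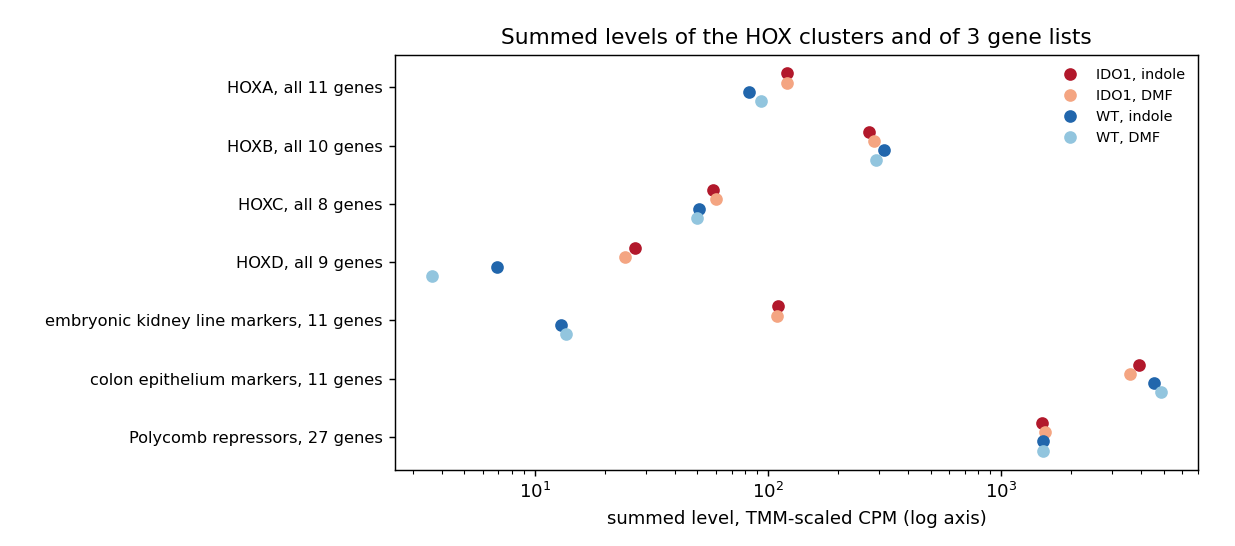
Summed TMM-scaled CPM (log axis) of each HOX cluster, of 2 marker lists and of the Polycomb list in each library. The IDO1 points of HOXD and of the embryonic kidney list lie to the right of the wild type points, by 24.5 to 27 against 3.62 to 6.92 CPM and by 110 to 111 against 13.0 to 13.6 CPM.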

How the data were processed

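Raw read counts for 20812 amplicon targets were used as deposited, per the file headers with a single count column and no scaling, from AmpliSeq whole-transcriptome libraries per the labels' protocols. The submitters' processing notes name hg19. The aligner and counter are not given in the sources used here. Although the design text speaks of 2 replicates, every file had 1 column of counts, which was taken as 1 library. It may hold either a single replicate or replicates added together, which the sources used here do not state, and counting intervals do not cover the spread between replicates in either case. HOXC4 was not analysed here.

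Libraries were scaled by TMM in edgeR 4.0.16 (R 4.3.3). The additive fit kept 13122 genes by filterByExpr, and quasi-likelihood p-values were adjusted over them by Benjamini-Hochberg. The SE is the log2 fold change over the square root of F. Ratios of 2 libraries carry exact 95% Clopper-Pearson intervals. DESeq2 1.42.0 and other scalings, filters, pseudocounts and models were alternatives. On simulated counts of 13041 genes for the line effect, 81 of 100 genes changed 2-fold and 100 of 100 changed 8-fold were called, with 7 false calls. The changed genes were drawn from those above a minimum of mean reads, which left out low members such as HOXD11. Scatter was set alike for all genes, with no treatment effect and no library that stood apart. These rates therefore do not carry over to the calls above.

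Full statistics were reserved for the 10 members with the smallest adjusted p for the line. From other lists, called genes were named or, with no call, the 2 with most reads. Cluster neighbours and noncoding RNAs were instead named for their position or after their values were seen. Uncalled genes of the marker lists were also named outside that rule. Members and lists were chosen with earlier results of these data known. Some genes are not reported here.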

Additional observations from a re-analysis of the deposited data

Results flagged for a closer look

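For 3 HOX genes the same contrast had opposite directions in 2 settings, each with a counting interval that excluded 1. The difference was not tested, as each ratio compares single libraries. The share of all genes with such a reversal was not computed, so the count cannot be read as particular to HOX genes. HOXB6 had an indole to DMF ratio of 0.827 in the IDO1 line and 1.34 in wild type, which is the same difference as its ratio of the IDO1 line to wild type of 0.841 in indole and 1.37 in DMF. HOXB9 had an indole to DMF ratio of 1.46 in the IDO1 line and 0.777 in wild type. HOXC6 had a ratio of the IDO1 line to wild type of 0.825 in indole and 1.53 in DMF. Each pair of ratios includes the wild type library with indole, whose part was not tested.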

How the results depend on the processing

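HOXD13 and HOXD10 were called for the line under all 6 alternatives and without each library in turn. The 6 members that rose became 2 with DESeq2 and 3 with treatment dropped from the model, and between 2 and 12 when each library was left out in turn with line as the only term, an alternative chosen after seeing the data; 0 to 2 members fell. The 2 came without either IDO1 library, the 12 without wild type with DMF, where 2362 of all genes rose. Without wild type with indole the count was 5. Over all genes, 267 rose and 55 fell, against 76 and 12 with DESeq2. The cause was not tested. The treatment effect called 0 members in each alternative. Members at least 2-fold higher in DMF numbered 3, but 6 with a pseudocount of 0.25, 1 with 5 and 1 with a minimum of 10 CPM. In indole they numbered 6, but 2 with a pseudocount of 5 and 2 with a minimum of 10 CPM. For indole in wild type the count was 0, or 1 with library totals. No paired analysis was possible because each group has 1 library. Members at 0 to 3 reads are limited by depth.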
